A study of Fukomys damarensis and Heterocephalus glaber and Cavia porcellus with 28 samples.

Results

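The mitochondrial ribosomal protein genes are the nuclear genes for the protein parts of the ribosome that works inside mitochondria. They were taken as every gene whose mouse symbol reads Mrpl or Mrps followed by a number. The rule found 75 genes among 13928 in the heart table and the same 75 in the liver table, and the rule itself uses no measured value. By the roles of their products, 48 code for large subunit proteins, 26 for small subunit proteins, and the remaining gene is Mrps36. All 75 passed the filter on low values in both tissues, and none had 0 reads in any library.

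The mitochondrial ribosome, or mitoribosome, translates the few messenger RNAs of the mitochondrial genome, which code for core subunits of the respiratory chain and the ATP synthase. All of its proteins are made in the cytosol from nuclear genes and imported, while its ribosomal RNAs are transcribed in the organelle. Many of its proteins descend from bacterial ribosomal proteins, and others were added in the mitochondrial lineage. Heart muscle and hepatocytes are both rich in mitochondria, and inherited defects of several of these proteins cause cardiomyopathy or liver disease in humans.

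Total RNA depleted of ribosomal RNA was sequenced from 28 libraries of 18 animals of 4 rodent species, of which 10 animals gave both tissues. Hearts numbered 3 for the naked mole-rat (aged 13 to 17 months), 5 for the Damaraland mole-rat (36 to 48 months), 3 for the guinea pig (2.3 months) and 3 for the mouse (2 months). Livers numbered 4, 5, 3 and 2 in the same order, with the same age ranges. For 1 Damaraland animal the labels give 48 months with its heart and 36 months with its liver. The animals were males apart from 1 Damaraland liver, replicate 4, and no treatment or genotype is named in the labels. The guinea pig and the mouse serve as outgroups to the African mole-rats. Species and age cannot be told apart in this design.

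Values are on the log2-like scale of the deposited tables, in which 1 unit is close to a 2-fold change for abundant genes and less for rare ones. In heart a 2-fold change moves the value by 0.679 from 100 scaled reads and by 0.946 from 1000, and in liver by 0.801 and 0.973. Scaled reads are reads over the size factor of their library. They carry no correction for differences in gene length between species, so a difference between species can also hold a difference in the length or completeness of the gene model, which was not tested. Total reads, summed over the genes of each table and not over all sequenced reads, ran from 4089633 to 26985779 in heart, lowest in naked mole-rat replicate 3. In liver they ran from 11220505 to 21467939. Heart libraries showed 492600 to 1607000 summed scaled reads of 6 cardiomyocyte markers against 476.7 to 3024 in liver. Liver libraries showed 884700 to 2917000 scaled reads of 6 hepatocyte markers, against 11130 to 31410 in naked mole-rat heart and 356.3 to 6926 in the other hearts. The 2 tables were normalised separately, so these sums across tissues only check the tissue labels. In bulk tissue, fewer cells of a type and less RNA per cell cannot be told apart.

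The summed reads of the set gave a different species order in each tissue. In heart the summed scaled reads of the 75 genes were 45658, 42165 and 40995 in the naked mole-rats and 64195, 69019, 72965, 48960 and 58818 in the Damaraland mole-rats. Guinea pig hearts had 40524, 41029 and 41996, and mouse hearts 62127, 64964 and 64635. Every Damaraland and mouse heart thus lay above every naked mole-rat and guinea pig heart, and the Damaraland range enclosed the mouse values. In liver the sums were 41749, 44985, 44885 and 48029 in the naked mole-rats and 35236, 34297, 33619, 36074 and 25817 in the Damaraland mole-rats. Guinea pig livers had 29310, 25084 and 29285 and mouse livers 36668 and 36336. By this sum the naked mole-rat livers lay above all others, and the lowest Damaraland liver, replicate 5, lay within the guinea pig range. Abundant genes weigh most in a sum. Gene by gene, the median naked mole-rat minus mouse difference in liver was -0.01 over the members, with 36 of the 75 above 0. As the tables were normalised separately, the members' levels are not compared between heart and liver.

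**Figure D1:**
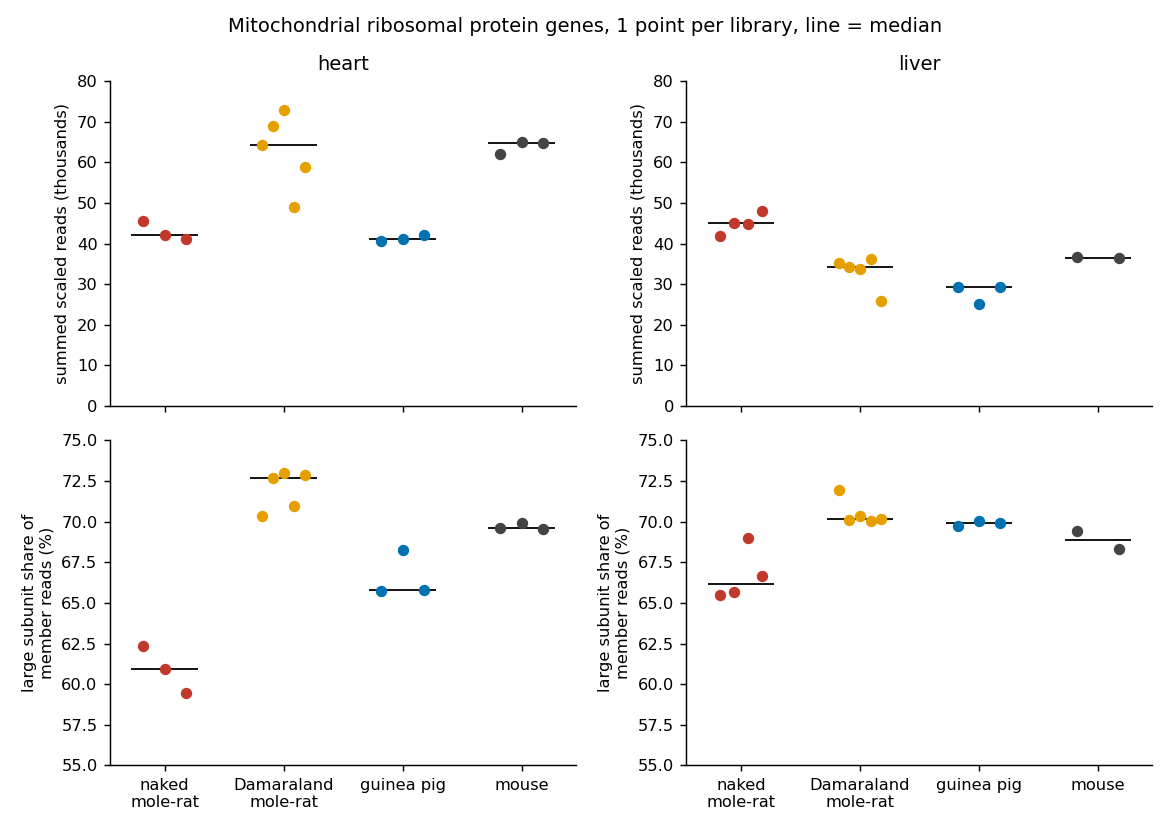
Summed scaled reads of the 75 mitochondrial ribosomal protein genes (top, axis in units of 1000) and the percent of those reads that fall on large subunit genes (bottom), by species in heart (left) and liver (right). Each point is 1 library and each line a median. Naked mole-rat and guinea pig hearts sit between 40524 and 45658, below the Damaraland and mouse hearts, naked mole-rat livers sit highest, and naked mole-rat hearts have the lowest large subunit share (59.47% to 62.36%).

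Reads assigned to genes of the mitochondrial genome differed between the species as well. They made up 5.42% to 26.9% of reads in the naked mole-rat, guinea pig and mouse hearts and 2.88% to 7.09% in their livers. In any Damaraland library they made up at most 0.0279%. How reads were assigned across species is not given in the sources used here, so these shares are not read as levels of expression. The part of assignment in the low Damaraland share was not tested. With those reads left out, the members took 0.357% to 0.387% of the remaining reads in naked mole-rat heart and 0.391% to 0.514% in Damaraland heart. Guinea pig and mouse hearts had 0.345% to 0.370% and 0.439% to 0.458%. Every Damaraland and mouse heart thus again lay above every naked mole-rat and guinea pig heart. The Damaraland median, 0.484%, was above the mouse median of 0.457%, whereas by scaled reads the medians were 64195 and 64635, and the mouse values lay within the Damaraland range on both scales. In liver the shares were 0.284% to 0.336% in naked mole-rats, 0.208% to 0.266% in Damaraland mole-rats, 0.210% to 0.227% in guinea pigs and 0.281% to 0.294% in mice, so that on this scale 1 mouse liver fell within the naked mole-rat range and the other just below it.

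A gene was called at a limma adjusted p under 0.05 with a difference of at least 1 unit. Between the mole-rats in heart, 19 of the 75 members were called, 2 higher and 17 lower in the naked mole-rat, which is 25.3% of members beside 29.4% of all genes tested. The median difference was -0.39 over the members and -0.00 over all genes tested. In liver 21 were called, 16 higher and 5 lower in the naked mole-rat, or 28% beside 34.2% of all genes, with a median of 0.29 over the members and -0.03 over all genes. The total share called was thus below the background in both tissues. Members called lower made up 22.7% in heart beside 15.2% of all genes and 6.67% in liver beside 17.6%, and members called higher 2.67% beside 14.2% in heart and 21.3% beside 16.6% in liver. Neither the difference from the background nor that between the tissues was tested.

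Cytosolic ribosomal protein genes, which make the ribosome outside the mitochondrion, were read in the same way. In heart 3 of the 69 tested were called higher and 14 lower in the naked than in the Damaraland mole-rat, with a median difference of -0.40. In liver 18 were higher and 4 lower, with a median of 0.67. Their directions thus paralleled those of the mitochondrial set in both tissues. A list of 11 genes for general mitochondrial content, such as Vdac1 and Tomm20, summed to 46630 to 53000 scaled reads in naked and 44990 to 63570 in Damaraland hearts, which overlap. In liver the same list had 34890 to 42120 in naked and 21160 to 33240 in Damaraland mole-rats, which do not overlap. By gene, Cs, Tomm22 and Timm23 were called lower in naked mole-rat heart (-1.11, -1.68 and -1.73), where Vdac1 and Tomm20 were not called (0.74 and 0.99). By limma none of the 11 was called higher in heart, with 3 at an unadjusted p under 0.05 and 1 by voom. In liver Vdac1 and Tomm20 were called higher (1.22 and 1.35). None was called lower there by limma or voom, with 3 lower at an unadjusted p under 0.05.

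Marker sums of several cell types also separated the mole-rats, in 6 of 10 lists in heart and 5 of 10 in liver. Cardiomyocyte markers summed to 492600 to 919800 scaled reads in naked and 1157000 to 1607000 in Damaraland hearts, and of the 6 genes Ryr2 was higher and Myh6 lower in the naked mole-rat. Adipocyte markers summed to 921.7 to 1593 against 3125 to 4696, and the 3 genes tested, Adipoq, Fabp4 and Cidec, were all lower in naked mole-rat heart. Sums of smooth muscle and pericyte markers were lower without overlap, at 6249 to 10150 against 11170 to 15790, with Acta2 called lower. Myh11 and Tagln went the other way (differences of 0.72 and 0.48, neither called), and Rgs5 was at -0.03. Macrophage sums were also lower without overlap, at 207.2 to 496.4 against 540.1 to 905.3. By limma no macrophage gene was called, with Ptprc at -0.70, Csf1r at -0.84 and Cd68 at 0.09, and voom called 2 lower. Fibroblast sums overlapped, at 4964 to 11820 against 6111 to 20790, and Dcn and Lum, 2 of the 4 genes, were lower. Hepatocyte markers of naked mole-rat hearts exceeded those of all other hearts, with 5 genes higher and 1, Apoa1, lower than in Damaraland heart, and the Kupffer cell gene Cd5l had 33.08 to 55.81 against 0 to 14.05. Endothelial, stellate cell and cholangiocyte sums overlapped in heart.

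In liver the hepatocyte sums overlapped, at 1594000 to 2917000 in naked and 1574000 to 2170000 in Damaraland mole-rats, with Tat higher in the naked mole-rat. Cholangiocyte sums were higher without overlap, at 2136 to 2973 against 66.22 to 395.6, and 1 of the 3 tested, Epcam, was called. Krt19 overlapped, with 185 to 264 against 37.7 to 300, and Krt7 went the other way (difference -0.43, not called). Cd5l, the 1 Kupffer cell gene in the table, was higher, with 1087 to 1783 against 76.55 to 562.4, and so were the fibroblast sums, with 1950 to 2384 against 618.2 to 1321 and Col1a2 called. Dcn and Pdgfra were also higher (differences of 0.96 and 0.83, neither called), but Lum went the other way (-0.47, not called). Adipocyte sums were lower in the naked mole-rat, at 123.6 to 210.7 against 752.3 to 3640, with Plin1 called. Adipoq was lower as well (difference -1.17, not called), but Fabp4 went the other way (0.84, not called). Cidec, which was not tested, had 11.6 to 20.7 scaled reads in naked and 0 to 2.23 in Damaraland mole-rats. Cardiomyocyte sums were also lower in the naked mole-rat, at 858.6 to 1512 against 1525 to 3024, with Myh6 called. The other lists overlapped, although Lrat of the stellate cell list was called higher and Cd68 of the macrophage list lower. No marker in the tables was at 0 in all libraries of either mole-rat. The part of these lists in the member counts was not tested.

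The outgroups also differed from each other, mostly in 1 direction. Guinea pig and mouse hearts had 29 members called, 6 higher and 23 lower in the guinea pig, or 38.7% beside 32.1% of all genes (15.2% higher and 16.9% lower). Their livers had 23 called, 2 higher and 21 lower, or 30.7% beside 37.2% (18.8% higher and 18.4% lower). The median difference was -0.58 in heart and -0.44 in liver, while over all genes it was 0.01 and 0.03. Mrpl19 and Mrpl23 were the members higher in guinea pig liver. Of the members called between these species, 14 had the same sign in both tissues, which is 48.3% of the heart calls and 60.9% of the liver calls. Over the 10109 genes tested in both tissues, the same shares were 48.0% and 41.2%. Marker sums separated these species in 8 of 10 lists in each tissue. Fibroblast markers, for example, had 15150 to 32820 scaled reads in guinea pig and 4519 to 5828 in mouse heart (4 of 4 genes higher), and endothelial markers 5739 to 7276 and 2161 to 2721 in liver (4 of 4 higher). Cardiomyocyte sums were lower in guinea pig heart, at 739200 to 847000 against 1002000 to 1079000, and hepatocyte sums overlapped in liver. Their part in the member counts was not tested.

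Each mole-rat was also compared with each outgroup. These comparisons share control samples with each other, so their counts are given side by side and not as separate evidence. Against the guinea pig, 22 members were higher and 4 lower in Damaraland heart (34.7% called, all genes 29.7%, of which 14.7% higher and 15.1% lower). In naked mole-rat heart 9 were higher and 9 lower (24%, all genes 33.0%, of which 16.0% higher and 17.0% lower). In liver 11 were higher and 5 lower in the Damaraland mole-rat (21.3%, all genes 36.2%, of which 19.1% higher and 17.1% lower). There 21 were higher and 1, Mrpl18, lower in the naked mole-rat (29.3%, all genes 37.8%, of which 19.4% higher and 18.5% lower). Against the mouse, 11 members were higher and 12 lower in Damaraland heart (30.7%, all genes 34.9%), and 3 higher and 23 lower in naked mole-rat heart (34.7%, all genes 38.2%, or 20.2% lower). The 3 were Mrpl27, Mrps5 and Mrps27. In liver 8 were higher and 14 lower in the Damaraland mole-rat (29.3%, all genes 39.2%, of which 20.9% higher and 18.4% lower). There 16 were higher and 6 lower in the naked mole-rat (29.3%, all genes 41.2%, of which 21.1% higher and 20.1% lower). The 16 are 21.3% of members, close to the share of all genes called higher.

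**Figure D2:**
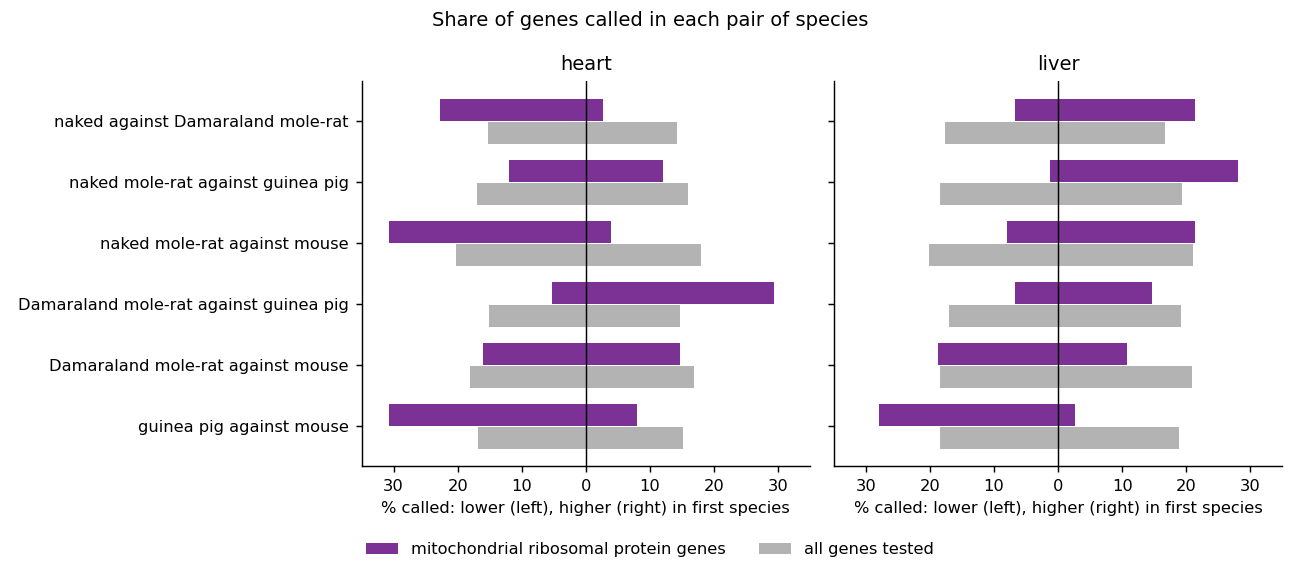
Percent of the 75 members (purple) and of all genes tested (grey) called in each pair of species, drawn to the left of 0 when lower and to the right when higher in the species named first, for heart and liver. Members called lower made up 22.7% beside 15.2% of all genes in naked against Damaraland heart, 30.7% beside 20.2% in naked mole-rat against mouse heart, and 30.7% beside 16.9% (heart) and 28% beside 18.4% (liver) in guinea pig against mouse, and members called higher 29.3% beside 14.7% in Damaraland mole-rat against guinea pig heart; these differences in share were not tested.

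The species means were then ranked gene by gene. In heart 37 members were highest in the mouse and 23 in the Damaraland mole-rat, against 10 in the guinea pig and 5 in the naked mole-rat. The lowest mean was in the guinea pig for 35 members and in the naked mole-rat for 21. In liver 30 were highest in the mouse and 24 in the naked mole-rat, and 28 were lowest in the guinea pig. Among all genes each species held between 22.5% and 28.3% of the heart ranks and between 21.5% and 29.3% of the liver ranks, highest or lowest. The range of the species means had a median of 1.48 over the members in heart, beside 1.41 over all genes, and of 1.31 in liver, beside 1.58.

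Some members varied little. Mrps25 had the smallest range in heart, with its 4 species means within 0.444 units, and Mrps16 in liver, within 0.175. In heart 19 members and in liver 22 were called in no pair of species, so that 74.7% and 70.7% were called in at least 1, beside 72% and 76.4% of all genes. The widest ranges were 3.68 units for Mrpl42 in heart and 3.3 units for Mrps26 in liver.

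The members lower in naked than in Damaraland heart were 15 large subunit and 2 small subunit genes. Of the 48 large subunit genes, 1, Mrpl53, was called higher, and the median difference was -0.62. Of the 26 small subunit genes, Mrps28 was higher, Mrps7 and Mrps24 were lower, and the median was -0.10. Large subunit genes took 62.4%, 60.9% and 59.5% of member reads in naked mole-rat hearts and 70.3%, 72.7%, 73.0%, 71.0% and 72.9% in Damaraland hearts. Guinea pig hearts had 65.8%, 68.3% and 65.8%, and mouse hearts 69.6%, 70.0% and 69.6%. The 4 species did not overlap in this share. In liver naked mole-rats had 65.5%, 65.7%, 69% and 66.7% and Damaraland mole-rats 70.0% to 71.9%, again without overlap, while guinea pigs had 69.7% to 70.0% and mice 68.3% and 69.4%. There 10 large subunit genes were higher and 5 lower in the naked mole-rat (median 0.18), and 6 small subunit genes were higher and 0 lower (median 0.48). At an unadjusted p under 0.05 by limma 3 small subunit genes were lower, and voom on the recovered reads called 8 higher and 0 lower.

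**Figure D3:**
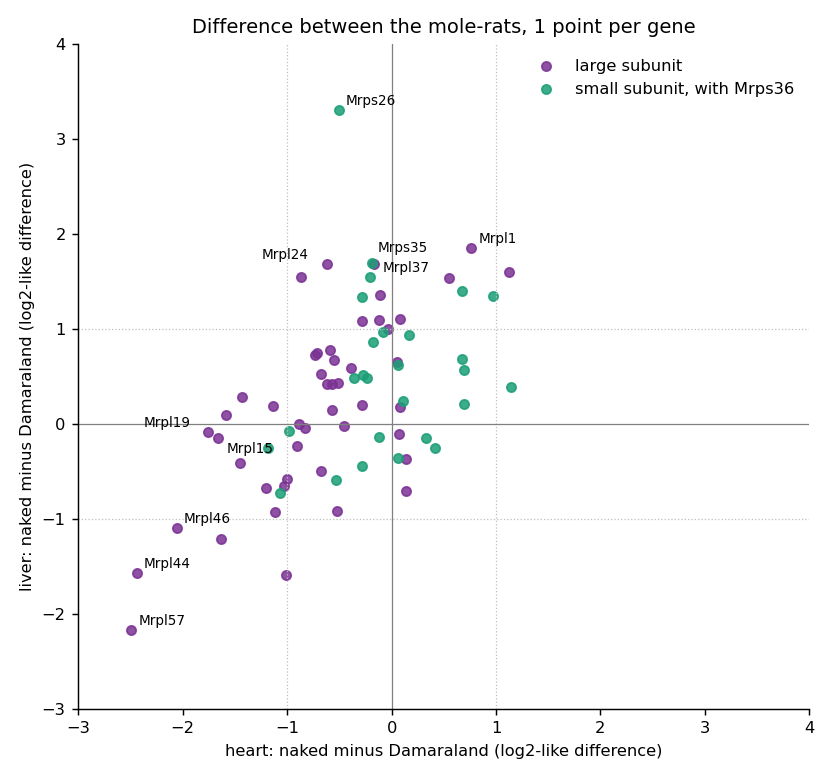
Difference between naked and Damaraland mole-rats in heart (horizontal) and liver (vertical) for each of the 75 genes on the log2-like scale, with dotted lines at 1 and -1. Large subunit genes extend to the left, down to -2.50 in heart for Mrpl57, and Mrps26 stands highest at 3.30 in liver with -0.51 in heart.

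Few members set both mole-rats apart from both outgroups, that is, were called in all 4 such pairs with 1 sign. In heart 2 members did so (2.67%, all genes 4.68%, of which 2.06% higher and 2.62% lower) and in liver 1 (1.33%, all genes 6.29%, of which 3.42% higher and 2.87% lower). Mrpl27, a relative of bacterial L27 that lies close to the peptidyl transferase centre, was higher. Its heart values were 9.90, 9.97 and 9.91 in naked mole-rats, 10.58, 11.04, 11.34, 10.19 and 10.90 in Damaraland mole-rats, 8.41, 8.19 and 8.40 in guinea pigs and 8.83, 8.89 and 8.86 in mice. All mole-rat hearts lay above all outgroup hearts, and the average of the mole-rats exceeded that of the outgroups by 1.77 (SE 0.15, limma adjusted p = 2.16e-08). In liver the average difference was 1.08 (SE 0.12, limma adjusted p = 7.43e-07), where the pairs against the mouse gave 0.98 and 0.99 and so missed the size needed.

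Mrpl18, whose product belongs to the central protuberance, the crown of the large subunit that faces the small one, was lower in both mole-rats in heart. Naked mole-rats had 9.52, 9.39 and 8.98 and Damaraland mole-rats 8.75, 9.55, 9.64, 8.89 and 8.96, against 10.41, 10.93 and 10.77 in guinea pigs and 10.39, 10.56 and 10.51 in mice. No mole-rat heart reached an outgroup heart, and the average difference was -1.37 (SE 0.16, limma adjusted p = 1e-06). In liver it was -0.97 (SE 0.15, limma adjusted p = 1.67e-05), just short of the size threshold.

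Mrps9, a protein of the small subunit head related to bacterial S9, was the 1 member higher in both mole-rats in liver. The values were 10.74, 10.32, 10.01 and 11.11 in naked mole-rats, 10.25, 10.09, 9.78, 10.16 and 10.01 in Damaraland mole-rats, 8.37, 8.60 and 8.48 in guinea pigs and 8.42 and 8.19 in mice. Mole-rat and outgroup livers did not overlap, and the average difference was 1.91 (SE 0.16, limma adjusted p = 1.01e-08). In heart the average was 1.07 (SE 0.17, limma adjusted p = 2.46e-05), with 0.54 between naked mole-rat and mouse.

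Across the average contrast of mole-rats against outgroups, 13 members were called in heart, 7 higher and 6 lower (17.3%, all genes 23.4%, of which 10.8% higher and 12.6% lower). In liver 8 were called, all higher (10.7%, all genes 28.1%, of which 15.1% higher and 13.0% lower). At an unadjusted p under 0.05 by limma, 30 members were higher and 14 lower in liver. The members called in both tissues were Mrpl11, Mrpl27, Mrpl37 and Mrps9, each higher, which is 30.8% of the heart and 50.0% of the liver calls, beside 45.3% and 38.1% over all genes tested in both tissues. Mrpl30 and Mrpl42 were lower in heart in the average and against the mouse, but the Damaraland mole-rat was called higher than the guinea pig for both, by 1.01 (SE 0.21, limma adjusted p = 0.000467) for Mrpl42. With voom the liver count became 14, with 11 higher and 3 lower. The medians were -0.05 in heart and 0.09 in liver, beside -0.01 and 0.02 over all genes.

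The stalk of the large subunit, which recruits translation factors, is built from Mrpl12 dimers held by Mrpl10, and Mrpl11 forms its base. In heart Mrpl11 had 10.21, 10.19 and 10.16 in naked and 10.56, 11.09, 10.43, 10.33 and 10.47 in Damaraland mole-rats, with 8.94, 8.98 and 8.58 in guinea pigs and 9.31, 9.32 and 9.27 in mice. Every mole-rat heart was above every outgroup heart, and the average difference was 1.32 (SE 0.12, limma adjusted p = 9.78e-08). In liver the mole-rats ranged from 8.76 to 9.21 (Damaraland) and 9.50 to 9.69 (naked) and the outgroups from 7.81 to 8.37 (guinea pig) and 8.46 to 8.57 (mouse), again without overlap between mole-rats and outgroups. The liver difference was 1.07 (SE 0.12, limma adjusted p = 7.35e-07).

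Mrpl10 did not follow Mrpl11. In heart it ranged from 8.91 to 9.43 in naked mole-rats, 8.47 to 9.45 in Damaraland mole-rats, 9.38 to 9.48 in guinea pigs and 9.90 to 10.10 in mice, and none of its pairs was called. In liver the naked mole-rats, at 10.22, 10.63, 10.34 and 10.36, lay above all other livers, whose values ran from 8.59 to 9.53. The difference from Damaraland liver was 1.11 (SE 0.14, limma adjusted p = 3.21e-06) and from guinea pig liver 1.52 (SE 0.17, limma adjusted p = 3.69e-07).

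Mrpl12, which also binds the mitochondrial RNA polymerase, was lower in naked mole-rat heart than in each other species. So were Mrpl44 and Mrpl57, and these 3 members make up the naked mole-rat's own calls in heart (4%, all genes 9.02%, of which 4.87% higher and 4.14% lower). The Mrpl12 values were 10.44, 10.21 and 8.99 in naked mole-rats, 11.35, 11.49, 11.60, 10.74 and 11.40 in Damaraland mole-rats, 11.21, 10.86 and 10.69 in guinea pigs and 11.73, 11.81 and 11.52 in mice. The naked mole-rat hearts were below all others, with replicate 3, the library of lowest depth, far below its group. The difference from Damaraland heart was -1.43 (SE 0.27, limma adjusted p = 0.000232), and without replicate 3 the gene was no longer called against every species. The same held without guinea pig replicate 1 and with quantile normalisation, array weights or voom. In liver Mrpl12 was higher in the mouse (11.16 and 10.56) than in the other species (9.22 to 10.10), a call that was lost after centring or quantile normalisation and without mouse replicate 1, guinea pig replicate 2 or naked mole-rat replicate 1 or 3.

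Among the genes of the central protuberance, Mrpl40 and Mrpl46 were higher in Damaraland heart than in every other species. With Mrpl32 they are the 3 members that set this species apart in heart (4%, all genes 6.76%, of which 3.86% higher and 2.90% lower). In liver 3 did so as well (4%, all genes 8.81%, of which 5.51% higher and 3.30% lower), Mrpl40 and Mrpl57 higher and Mrps26 lower. Mrpl46 had 10.40, 10.44, 10.81, 10.42 and 10.67 in Damaraland heart, against 8.60, 8.54 and 8.33 in naked mole-rats, 9.12, 9.49 and 9.44 in guinea pigs and 9.09, 9.25 and 9.20 in mice. The Damaraland hearts did not overlap with the rest, and the difference from the naked mole-rat was -2.06 (SE 0.15, limma adjusted p = 4.07e-09). In liver that difference was -1.10 (SE 0.17, limma adjusted p = 2.68e-05), and the gene was called against the guinea pig but not the mouse.

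Mrpl40 was the 1 member higher in the Damaraland mole-rat alone in both tissues. Heart values were 10.58, 10.20, 10.21, 9.59 and 9.36 in Damaraland mole-rats, 8.71, 8.75 and 9.46 in naked mole-rats, 8.13, 7.79 and 8.31 in guinea pigs and 8.64, 8.74 and 8.60 in mice, with 1 naked mole-rat above the lowest Damaraland heart. Liver values were 9.27, 9.41, 9.36, 9.44 and 9.02 in Damaraland mole-rats and did not overlap with the 7.31 to 8.15 of the other livers. The naked minus Damaraland difference was -1.01 (SE 0.25, limma adjusted p = 0.00204) in heart and -1.59 (SE 0.15, limma adjusted p = 4.82e-08) in liver. The heart call was lost without Damaraland replicate 1, 2 or 3 or naked mole-rat replicate 1 or 2.

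Mrpl52, also of the protuberance, was highest in guinea pig heart. The values were 10.06, 10.55 and 9.83 there, 8.36, 8.27 and 7.64 in naked mole-rats, 8.88, 8.78, 8.80, 7.84 and 8.89 in Damaraland mole-rats and 9.11, 9.09 and 9.01 in mice. The guinea pig hearts did not overlap with the others, and the difference from the mouse was 1.08 (SE 0.27, limma adjusted p = 0.00234). Leaving out guinea pig heart replicate 2 ended the guinea pig call. The other members of this group, Mrpl38 and Mrpl48, are given by counts: over the 6 genes, 3 were called lower in naked than in Damaraland heart (all genes 15.2%) and 2 in liver (all genes 17.6%). By limma none was called higher, with 0 higher in heart and 2 in liver at an unadjusted p under 0.05 and 0 in either by voom on the recovered reads.

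Large subunit genes outside these structures gave the widest differences between the mole-rat hearts. Mrpl44, a protein with a ribonuclease III fold whose loss in humans causes cardiomyopathy, had 8.49, 8.14 and 7.53 in naked mole-rat hearts. Damaraland hearts had 10.19, 10.61, 10.51, 10.40 and 10.78, guinea pig hearts 9.64, 10.59 and 9.89 and mouse hearts 9.59, 9.77 and 9.79. The naked mole-rat was more than 1 unit below every library of the other species, and mean scaled reads were 200 against 1377, 1017 and 763. The difference from the Damaraland mole-rat was -2.44 (SE 0.23, limma adjusted p = 1.01e-07) in heart and -1.57 (SE 0.15, limma adjusted p = 5.98e-08) in liver, where the naked mole-rat was not called against the outgroups.

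Mrpl57, a small protein specific to mitochondrial ribosomes, gave the most negative difference between the mole-rats in both tissues. In heart naked mole-rats had 8.27, 8.06 and 6.55, Damaraland mole-rats 10.03, 10.33, 10.33, 9.69 and 10.26, guinea pigs 8.76, 8.52 and 8.82 and mice 9.09, 9.20 and 9.20. Naked mole-rats were below all others, and the difference from the Damaraland mole-rat was -2.50 (SE 0.28, limma adjusted p = 1.17e-06). In liver the values were 8.40, 8.35, 7.58 and 8.39 in naked and 10.33, 10.55, 10.32, 10.60 and 9.96 in Damaraland mole-rats, with guinea pigs at 8.20 to 8.38 and mice at 8.64 and 8.85. There the Damaraland mole-rats were above every other species, with a difference of -2.17 (SE 0.18, limma adjusted p = 9.58e-09) for naked minus Damaraland. Without naked mole-rat heart replicate 3, the lower level in naked mole-rat heart was no longer called against every species, as with array weights, and the mole-rat average turned from -0.05 to 0.22.

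Mrpl32, which is cut to its mature form by the inner membrane m-AAA protease before it enters the ribosome, was higher in Damaraland heart alone. Its values were 9.67, 10.07, 10.07, 9.81 and 9.74 there, against 8.03 to 8.49 in naked mole-rats, 8.51 to 8.94 in guinea pigs and 8.59 to 8.86 in mice. No other heart reached the Damaraland range. The difference from the naked mole-rat was -1.59 (SE 0.16, limma adjusted p = 2.48e-07), and the call against the guinea pig needed guinea pig replicate 3. In liver Mrpl32 was called in no pair.

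Between the mole-rats 6 members were called with the same sign in both tissues. Mrpl40, Mrpl44, Mrpl46, Mrpl55 and Mrpl57 were lower in the naked mole-rat and Mrpl53 was higher. They make up 31.6% of the heart calls and 28.6% of the liver calls, and no member was called with opposite signs. Over all genes tested in both tissues, genes of the same sign made up 47.0% of the heart and 41.4% of the liver calls, and genes of opposite signs 4.83% and 4.25%. All are large subunit genes. Mrpl53 differed by 1.12 (SE 0.17, limma adjusted p = 2.87e-05) in heart and 1.60 (SE 0.13, limma adjusted p = 1.26e-08) in liver.

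**Figure D4:**
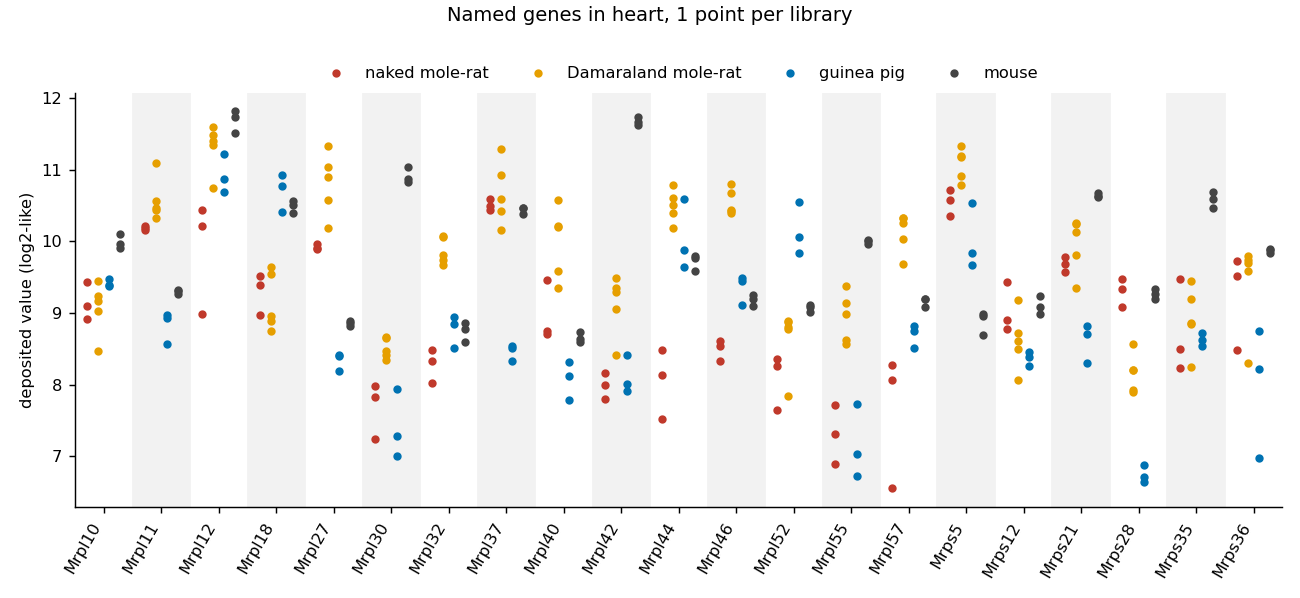
Deposited values of the 21 members named in heart, 1 point per library, by species, on the log2-like scale. Naked mole-rats lie lowest for Mrpl44 and Mrpl57, Damaraland mole-rats highest for Mrpl32 and Mrpl46, guinea pigs lowest for Mrpl37 and Mrps28, and mice highest for Mrpl30 and Mrpl42.

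The mouse stood apart in heart for 7 members, 6 higher and 1 lower (9.33%, all genes 10.4%, of which 6.60% higher and 3.80% lower). Mrpl42, a mitochondria-specific protein, had 11.73, 11.62 and 11.66 in mice against 7.81 to 8.17 in naked mole-rats, 8.42 to 9.50 in Damaraland mole-rats and 7.92 to 8.42 in guinea pigs. The gap to the next library exceeded 2 units, and the naked mole-rat minus mouse difference was -3.68 (SE 0.23, limma adjusted p = 8.03e-10). In liver that difference was -1.10 (SE 0.24, limma adjusted p = 0.000857). Mrpl30, a relative of bacterial L30, had 10.83, 10.88 and 11.04 in mouse heart and 7.0 to 8.67 in all other hearts, a difference from the guinea pig of -3.50 for guinea pig minus mouse (SE 0.23, limma adjusted p = 1.43e-09).

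Mrpl55, related to bacterial L31, had 9.96, 10.00 and 10.03 in mouse heart, 8.63, 9.14, 9.38, 8.57 and 8.99 in Damaraland heart, 6.89, 7.31 and 7.72 in naked mole-rat heart and 7.73, 7.04 and 6.72 in guinea pig heart. The mice were above all others, the Damaraland mole-rats above the remaining libraries, and naked mole-rats and guinea pigs overlapped. The naked minus Damaraland difference was -1.63 (SE 0.24, limma adjusted p = 1.69e-05) in heart and -1.21 (SE 0.20, limma adjusted p = 4.93e-05) in liver. Its place among the genes higher in the mouse alone was lost after centring, quantile normalisation or array weights, and without Damaraland heart replicate 1 or 4.

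Guinea pig heart was lower than every other species for 4 members and higher for Mrpl52 (5 in all, 6.67%, all genes 6.61%, of which 3.99% higher and 2.62% lower). Mrpl37, a mitochondria-specific large subunit protein, had 8.33, 8.52 and 8.54 in guinea pig heart and 10.16 to 11.28 in the other hearts. The naked mole-rat minus guinea pig difference was 2.05 (SE 0.22, limma adjusted p = 6.48e-07). In liver Mrpl37 was instead highest in the naked mole-rat, at 11.32, 11.66, 12.20 and 11.83, against 10.16, 10.21, 10.05, 10.38 and 9.57 in Damaraland mole-rats, 9.19, 8.92 and 9.20 in guinea pigs and 9.46 and 9.59 in mice. The naked mole-rat livers did not overlap with the others, with a naked minus Damaraland difference of 1.68 (SE 0.18, limma adjusted p = 3.16e-07) beside -0.17 (SE 0.20, limma adjusted p = 0.477) in heart.

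Naked mole-rat liver stood above every other species for 5 members, all higher (6.67%, all genes 10.3%, of which 5.83% higher and 4.45% lower): Mrpl37, Mrpl45, Mrps11, Mrps26 and Mrps35. By limma none was called lower, although 3 were at an adjusted p under 0.05 without a size threshold. Mrpl45 sits at the peptide exit of the large subunit and helps to anchor it to the inner membrane. Its liver values were 10.64, 10.82, 11.04 and 10.84 in naked mole-rats, 9.46, 9.32, 9.24, 9.51 and 9.0 in Damaraland mole-rats, 8.89, 8.69 and 9.23 in guinea pigs and 8.63 and 9.01 in mice. The naked mole-rats lay more than 1 unit above every other liver, with a difference from the Damaraland mole-rat of 1.53 (SE 0.15, limma adjusted p = 1.06e-07). In heart that difference was 0.55 (SE 0.20, limma adjusted p = 0.0269).

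At the same exit site, Mrpl23, which borders the tunnel opening, was low in mouse liver. Mouse livers had 6.19 and 6.24, where 0 reads would give 4.29, and mean scaled reads of 40.1 against 276 in naked mole-rats, 550 in Damaraland mole-rats and 266 in guinea pigs. Values elsewhere ran from 7.55 to 9.34. The Damaraland minus mouse difference was 2.98 (SE 0.27, limma adjusted p = 3.79e-08) in liver and 1.88 (SE 0.24, limma adjusted p = 2.9e-06) in heart. Mrpl17, another exit site gene, was higher in mouse liver (10.19 and 10.28) than in all other livers (8.57 to 9.44), and Mrpl19, related to bacterial L19, was lower (7.39 and 7.85 against 8.87 to 9.72). These, with Mrpl12, were the 4 members set apart in mouse liver (5.33%, all genes 12.2%, of which 6.33% higher and 5.83% lower). Over the 6 exit site genes, 1 was lower in naked than in Damaraland heart (all genes 15.2%) and 2 were higher in liver (all genes 16.6%).

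In the small subunit, Mrps26, specific to mitochondria, gave the widest difference in liver. The values were 10.05, 10.54, 9.89 and 10.59 in naked mole-rats, 7.30, 7.0, 6.84, 7.08 and 6.60 in Damaraland mole-rats, 8.13, 8.56 and 8.51 in guinea pigs and 8.44 and 8.40 in mice. Naked mole-rats were above and Damaraland mole-rats below both outgroups, with mean scaled reads of 1221 and 90.5. The naked minus Damaraland difference was 3.30 (SE 0.18, limma adjusted p = 4.66e-11). In heart it was -0.51 (SE 0.28, limma adjusted p = 0.12), and the naked mole-rat minus guinea pig difference there was -1.06 (SE 0.31, limma adjusted p = 0.00681).

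Mrps35, another mitochondria-specific small subunit gene, also turned direction against the mouse. In heart mice had 10.46, 10.60 and 10.69, above naked mole-rats at 8.50, 8.24 and 9.47, Damaraland mole-rats at 9.45, 8.86, 9.20, 8.85 and 8.24 and guinea pigs at 8.72, 8.63 and 8.54. In liver naked mole-rats had 10.67, 11.14, 9.94 and 9.93, above Damaraland mole-rats at 8.80, 8.81, 8.86, 8.97 and 8.19, guinea pigs at 8.11, 7.87 and 8.09 and mice at 8.41 and 8.57. Neither top group overlapped with the rest of its tissue. The naked mole-rat minus mouse difference was -1.85 (SE 0.29, limma adjusted p = 3.38e-05) in heart and 1.93 (SE 0.29, limma adjusted p = 1.69e-05) in liver.

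**Figure D5:**
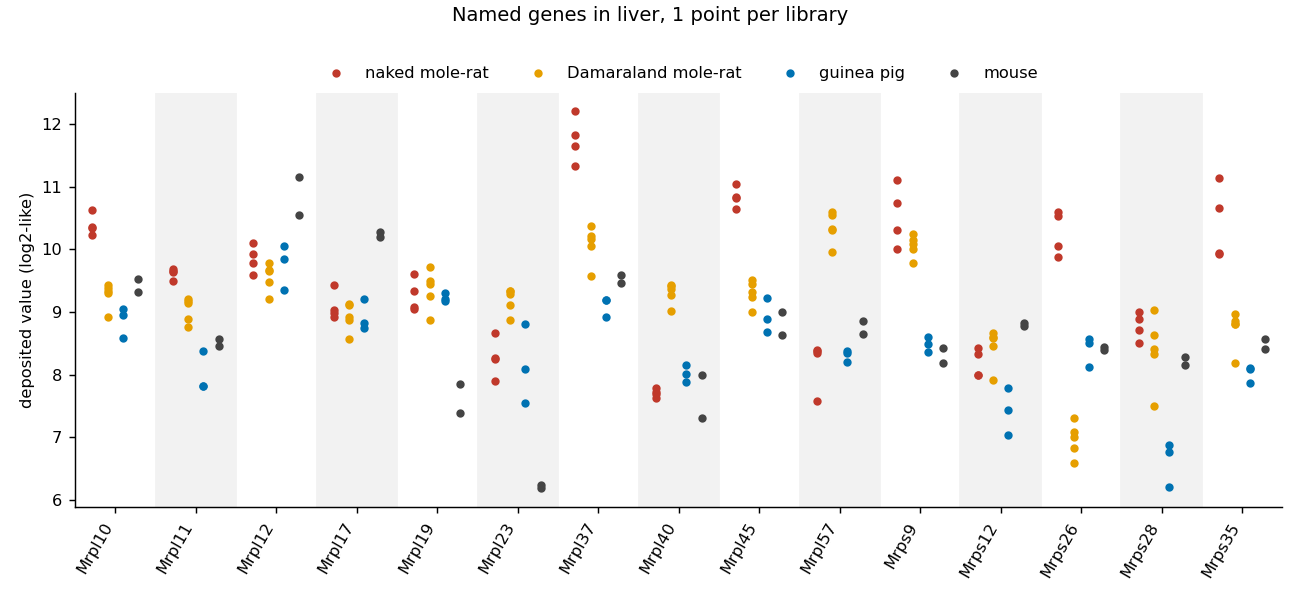
Deposited values of the 15 members named in liver, 1 point per library, by species, on the log2-like scale. Naked mole-rats lie highest for Mrpl37, Mrpl45, Mrps26 and Mrps35, Damaraland mole-rats highest for Mrpl40 and Mrpl57 and lowest for Mrps26, and mice lowest for Mrpl19 and Mrpl23.

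Mrps28, the counterpart of bacterial S1, was the 1 member lower in the guinea pig alone in both tissues, and the only one set apart in guinea pig liver (1.33%, all genes 9.38%, of which 5.10% higher and 4.28% lower). In heart guinea pigs had 6.71, 6.64 and 6.88, Damaraland mole-rats 8.20, 7.90, 8.57, 7.92 and 8.21, naked mole-rats 9.34, 9.48 and 9.08 and mice 9.20, 9.26 and 9.34. In liver guinea pigs had 6.21, 6.77 and 6.88, against 7.5 to 9.03 in all other livers. Guinea pigs did not overlap with any other species in either tissue. The guinea pig minus mouse difference was -2.53 (SE 0.18, limma adjusted p = 4.77e-09) in heart and -1.60 (SE 0.32, limma adjusted p = 0.000404) in liver, and in heart the naked mole-rat exceeded the Damaraland mole-rat by 1.14 (SE 0.16, limma adjusted p = 1.22e-05).

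Mrps5, a relative of bacterial S5, was lower in mouse heart (8.99, 8.97 and 8.70) than in naked mole-rats (10.35 to 10.72), Damaraland mole-rats (10.79 to 11.33) and guinea pigs (9.67 to 10.54). No mouse heart reached another species, and the Damaraland minus mouse difference was 2.19 (SE 0.19, limma adjusted p = 3.96e-08). Without guinea pig heart replicate 3 the mouse was no longer called against every species. In liver Mrps5 was called in no pair. Mrps21, related to bacterial S21, was lower in guinea pig heart (8.30, 8.82 and 8.71) than in all other hearts (9.35 to 10.68), a call that needed guinea pig replicate 1.

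Mrps12, the counterpart of bacterial S12 at the decoding centre, was called in no pair in heart, where its values ran from 8.07 to 9.43 over all libraries. In liver guinea pigs, at 7.79, 7.04 and 7.44, lay below all other livers, and the pairs called were Damaraland minus guinea pig at 1.02 (SE 0.20, limma adjusted p = 0.000217) and guinea pig minus mouse at -1.38 (SE 0.25, limma adjusted p = 0.000131).

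Mrps36 carries a ribosomal symbol, but its product is known as a component of the 2-oxoglutarate dehydrogenase complex of the citric acid cycle. In heart guinea pigs had 8.76, 6.97 and 8.22, naked mole-rats 9.73, 9.52 and 8.49, Damaraland mole-rats 9.80, 9.69, 9.74, 9.58 and 8.30 and mice 9.83, 9.89 and 9.88. The guinea pigs overlapped with both mole-rats, whose lowest libraries were 8.49 and 8.30, and the call below every other species was lost without guinea pig replicate 2 or naked mole-rat replicate 1 or 2. The naked mole-rat minus mouse difference was -0.62 in heart (SE 0.43, limma adjusted p = 0.212) and 1.71 (SE 0.28, limma adjusted p = 3.78e-05) in liver.

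The remaining genes of mitochondrial translation were counted for the average contrast of mole-rats against outgroups. Of 4 mitoribosome genes under other symbols, such as Dap3, limma called none in heart (4 lower at an unadjusted p under 0.05, and 1 lower by voom), and Ptcd3 was higher in liver. Of 14 translation factors limma called none in heart (9 higher and 2 lower at an unadjusted p under 0.05, and 2 higher by voom), and Tsfm and Slirp were higher in liver. Of 20 genes for mitochondrial aminoacyl-tRNA synthesis, Hars2 and Gatb were higher and Lars2 lower in heart, and Cars2 and Gatc were higher and Lars2 and Nars2 lower in liver. Lars2 was high in the mouse, ranging from 12.14 to 15.43 in heart (mean 13.74, n = 3) and from 11.90 to 15.35 in liver (mean 13.63, n = 2), while the guinea pig means were 9.70 and 9.05. Its mean in naked mole-rat heart, 10.17, and its liver means of 9.27 in naked and 9.45 in Damaraland mole-rats were above the guinea pig. In those groups Lars2 was below the mouse only, whereas its Damaraland heart mean, 9.20, was below both outgroups. Of 21 assembly factors, Ngrn and Trub2 were higher in both tissues. Nsun4 and Fastkd2 were lower in heart, and Mterf4 was higher in liver. The Damaraland liver means of Slirp (7.49) and Mterf4 (7.65) were not above those of the mouse (7.62 and 7.68).

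Of these lists, 1 of 21 assembly factors and 1 of 20 aminoacyl-tRNA genes set both mole-rats apart from both outgroups in heart. In liver 1 of 21 assembly factors, 1 of 4 genes of mitochondrial transcription and 1 of 11 for mitochondrial content did so. Over all genes tested, 4.68% did so in heart and 6.29% in liver. Ngrn, an assembly factor that binds the large ribosomal RNA, did so in both tissues, by 1.90 (SE 0.11, limma adjusted p = 3.81e-10) in heart and 1.92 (SE 0.14, limma adjusted p = 1.79e-09) in liver. In heart Ngrn ranged from 9.64 to 9.98 in naked and 10.98 to 11.54 in Damaraland mole-rats and from 8.53 to 8.80 in the outgroups. Hars2, the mitochondrial histidyl-tRNA synthetase, did so in heart, by 1.63 (SE 0.11, limma adjusted p = 1.28e-09). Polrmt, the mitochondrial RNA polymerase that Mrpl12 binds, did so in liver, by 2.21 (SE 0.11, limma adjusted p = 2.09e-11), with 10.50 to 11.03 in naked and 11.61 to 11.99 in Damaraland mole-rats beside 8.78 to 9.37 in the outgroups. Hspe1, the mitochondrial co-chaperonin from the list for mitochondrial content, did so in liver as well, by 1.88 (SE 0.18, limma adjusted p = 8.95e-08).

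The same lists were counted between the mole-rats. In heart 2 of the 4 mitoribosome genes under other symbols, Chchd1 and Gadd45gip1, were lower in the naked mole-rat, as were 3 of 14 translation factors, Tufm, Tsfm and Guf1. No gene of either list was called higher there by limma, 2 translation factors were higher at an unadjusted p under 0.05 and voom called 1 higher. In liver 1 of the 4, Chchd1, was lower, while among the translation factors Gfm2, Mtfmt and Slirp were higher and Mtrf1 and Guf1 lower. Assembly factors moved both ways in each tissue, with 3 higher and 5 lower in heart and 5 higher and 3 lower in liver. So did the 20 genes for mitochondrial aminoacyl-tRNA synthesis, with 2 higher and 3 lower in heart and 5 higher and 2 lower in liver. Of 4 genes of mitochondrial transcription, limma called only Polrmt, lower in the naked mole-rat in heart (-1.43) and liver (-1.05). Over all genes tested, 14.2% were higher and 15.2% lower in heart, and 16.6% and 17.6% in liver. Calls of the list for mitochondrial content are given above with its sums.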

How the data were processed

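RNA of heart and liver from 4 rodent species was sequenced, 14 libraries per tissue. Per the submitters' processing notes, cutadapt, Salmon 013.1, DESeq2 and the build GRCm38 were used; how genes were assigned across species is not given in the sources used here. The authors deposited 1 table per tissue of variance-stabilised expression, on a scale that behaves like log2, with mouse gene identifiers, of which 13921 of 13928 matched a symbol. The tables hold 26 columns of other series, which were not used. Inverting the transform gave whole reads for 100% of values (tolerance 0.0001 reads), and their sum over the genes of a table gave the depth. Depth covers counting error only.

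Each tissue was fitted with limma 3.58.1 in R 4.3.3, with a term per species, a variance trend and Benjamini-Hochberg adjustment over all 10667 heart or 10887 liver genes whose mean was at least 1 above the value of 0 reads. Calls required an adjusted p under 0.05 together with a difference of at least 1. The labels name the animals, so replicates are animals. Same-numbered libraries did not deviate together (median r -0.018 in heart and 0.026 in liver), so numbers were not used to pair samples.

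The members and gene lists were chosen with earlier results of these data known. Named in each tissue were members called in all 4 mole-rat and outgroup pairs, up to 4 per direction called in 1 species against the other 3, the 3 largest average differences per direction, members of the same class in both tissues, and Mrpl10, Mrpl11, Mrpl12 and Mrps12. Members named outside this rule, in counts of 5 or fewer or for their range, were chosen after their values were seen. Alternatives covered the size threshold, filter, centring, quantile normalisation, variance trend, array weights, a replicate block, voom on recovered reads and leaving out each library. The fit was tested on simulated data.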

Additional observations from a re-analysis of the deposited data

Results flagged for a closer look

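In 7 of 51 groups of named members with at least 4 libraries, 1 library stood apart from the rest by a gap test that chance passes in about 1 of 20 groups. In Damaraland heart, replicate 4 had 10.74 for Mrpl12 where the others had 11.35 to 11.60, and 7.84 for Mrpl52 where the others had 8.78 to 8.89. Replicate 5 had 8.30 for Mrps36, with the others at 9.58 to 9.80. In Damaraland liver, replicate 5, the library with the lowest summed reads of the members in its group, had 8.93 for Mrpl10 (others 9.31 to 9.44), 7.92 for Mrps12 (others 8.45 to 8.66) and 8.19 for Mrps35 (others 8.80 to 8.97). In naked mole-rat liver, replicate 3 had 7.58 for Mrpl57, and the others 8.35 to 8.40.

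For 9 members, a pair of species had all libraries on opposite sides in heart and liver, in 12 of 162 pairs compared among the named members. Over all 75 members it was 29 of 450 pairs, or 6.44%, beside 9.08% of the pairs of all genes tested in both tissues. The difference between the tissues was not tested, and 2 of the 12 pairs were called in both. Naked mole-rat minus mouse was -1.85 in heart and 1.93 in liver for Mrps35, and naked mole-rat minus guinea pig was -1.06 and 1.87 for Mrps26: these were the called pairs. Naked mole-rat minus mouse was -0.65 in heart and 1.84 in liver for Mrps26, -0.62 and 1.71 for Mrps36, -0.84 and 0.96 for Mrpl10, and -0.46 and 0.56 for Mrpl32. Mrps36 also gave -0.45 and 0.85 for Damaraland mole-rat minus mouse and -1.89 and 0.64 for guinea pig minus mouse. Naked minus Damaraland mole-rat was -0.39 and 0.59 for Mrpl11. Naked mole-rat minus guinea pig was 0.90 and -0.31 for Mrpl40. Damaraland mole-rat minus guinea pig was 1.01 and -0.68 for Mrpl42, and Damaraland mole-rat minus mouse was -1.06 and 0.41 for Mrpl55.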

How the results depend on the processing

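Without the size threshold more members were called in every comparison. Heart then had 43 for the mole-rat average, 41 for naked against Damaraland, 44 and 48 for the naked mole-rat against guinea pig and mouse, 51 and 46 for the Damaraland mole-rat against them, and 51 between the outgroups. It had 8 for both mole-rats, and 13, 14, 18 and 21 for naked mole-rat, Damaraland mole-rat, guinea pig and mouse alone. Liver had 42, 51, 47, 40, 43, 47, 47, 5, 20, 14, 16 and 13 in the same order. Array weights gave 1 member for naked mole-rat heart alone and 5 for Damaraland heart alone. Centring and quantile normalisation each gave 2 for both mole-rats in liver, and voom also 2. Voom on recovered reads gave 8 for guinea pig heart alone, 11 for mouse heart alone, 14 for the liver average and 5 for Damaraland liver alone. The replicate block, although the numbers pair no samples, gave 7 for Damaraland heart alone in place of 3. It also ended the call of Mrpl55 as higher in mouse heart alone, and no other count moved past 1.5 times under it.

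Leaving out 1 library gave 1 to 4 for naked mole-rat heart alone (1 without naked mole-rat replicate 3), 2 to 5 for Damaraland heart alone (5 without Damaraland replicate 4), 1 to 2 for both mole-rats in liver (2 without mouse replicate 2) and 1 to 2 for guinea pig liver alone (2 without guinea pig replicate 1). Without naked mole-rat heart replicate 3, of 4089633 reads, 18 members differed between mole-rat hearts, 3 higher and 15 lower. Leaving out a mouse liver left a lone sample assumed to vary like the other groups. The average difference of Mrpl57 in heart, -0.05, turned to 0.24 with array weights, 0.00 with voom, 0.00 without Damaraland replicate 4 and 0.22 without naked mole-rat replicate 3, and ran from -0.21 to 0.22 over the libraries left out. That of Mrps12, 0.09, ran from -0.01 (without naked mole-rat replicate 3) to 0.16. These causes were not tested. The number of mouse livers, 2, and the depth of naked mole-rat heart replicate 3 limit the precision of what rests on them.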
